A study of Ailuropoda melanoleuca with 25 samples.

Results

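Giant panda (Ailuropoda melanoleuca) cells exposed to A83-01 were compared with control cells at day 16. They belong to a reprogramming study that starts from primary fibroblasts (PF) and ends with induced pluripotent stem cells (GPiPSC), made with episomal vectors that do not integrate into the genome. The comparison was chosen by sample title and holds 4 of the 25 RNA-seq libraries, 2 titled A83-01 D16 and 2 titled control D16. The other 21 libraries fall into 10 groups, namely stage I D8, stage I D24, stage II D8, BACL-CHIR99021, BACL control, BACL LB GPiPSC, LB GPiPSC, XR GPiPSC, LB PF and XR PF. All 25 carry the same source label, primary fibroblast cells, the GPiPSC included. The labels do not give the dose or the days of exposure to A83-01, do not say what the control received, do not assign the day 16 libraries to LB, XR or a stage, and do not give the additives of the stage I cultures. The titles of the stage I and stage II libraries name neither LB nor XR. Separate cultures for the replicates are not stated either. The p-values therefore reflect library-to-library spread alone, and that spread may be technical.

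A83-01 is a small molecule that blocks the kinase activity of the type I receptors for TGF-beta, activin and nodal. These receptors phosphorylate SMAD proteins, which enter the nucleus and change transcription. In fibroblasts TGF-beta signalling sustains the mesenchymal state, and its inhibition is widely used to ease the mesenchymal-to-epithelial change that accompanies early reprogramming, whereas activin and nodal signalling help to maintain primed pluripotency. The tables hold 22924 gene models under assembly identifiers without gene names, and 0 identifiers occurred in the RefSeq gene table used (assembly ASM200744v3). The known targets of the pathway and the markers of fibroblasts, epithelium and pluripotent cells could therefore not be looked up, and the labelled cell states could not be checked against markers. The response is described here by groups of gene models, by their levels in the other stages of the study, and by 4 models given by identifier.

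The A83-01 libraries held 12734700 and 12922864 estimated counts in replicates 1 and 2, and the control libraries 11830242 and 11693617. Counts were found for 18881 and 18132 models in the A83-01 libraries, against 18035 and 17977 in the control libraries. The A83-01 replicates were less alike than the control replicates, with a Pearson correlation of log2 CPM (counts scaled to library size, with TMM factors) of 0.979 in A83-01 and 0.991 in control across models. The chi-square of the counts divided by its degrees of freedom, which is 1 for pure sampling noise, was 27.9 between the A83-01 replicates and 2.25 between the control replicates. Both pairs thus differed by more than sampling noise. Since the cells were measured in bulk, fewer cells of a kind and less RNA per cell cannot be told apart.

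More gene models were higher with A83-01 than were lower. Of 17225 models with enough counts to be tested, 721 were higher in A83-01 than in control (4.19% of those tested) and 351 were lower (2.04%), at an adjusted p under 0.05 in edgeR's quasi-likelihood test with Benjamini-Hochberg adjustment. Most of the estimated differences were over 2-fold, although a test against a 2-fold threshold called fewer models, 208 raised and 92 lowered. Of the raised models 683 (3.97% of those tested) were over 2-fold higher, 200 over 8-fold and 62 over 32-fold, and of the lowered models 311 (1.81%) were over 2-fold lower, 74 over 8-fold and 23 over 32-fold. The median log2 fold change was 2.17 in the raised models, -1.94 in the lowered models and 0.04 over all models tested. Both A83-01 libraries lay above both control libraries in 717 of the 721 raised models and below both in all 351 lowered models. Over all tested models 30.4% and 25.8% were separated in these directions.

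The counts of calls depended on which library was present. Without A83-01 replicate 1, 231 models were raised and 142 lowered. Without A83-01 replicate 2, 640 and 148 were, without control replicate 1, 241 and 139, and without control replicate 2, 184 and 118. Each time the lone library was assumed to vary like the other groups. The share of calls that were higher also depended on the fit. Raised models were 67.3% of calls in the test above, 49.1% when the 4 day 16 libraries alone entered the fit and 57.2% by limma-trend on log2(TPM + 1).

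**Figure D1:**
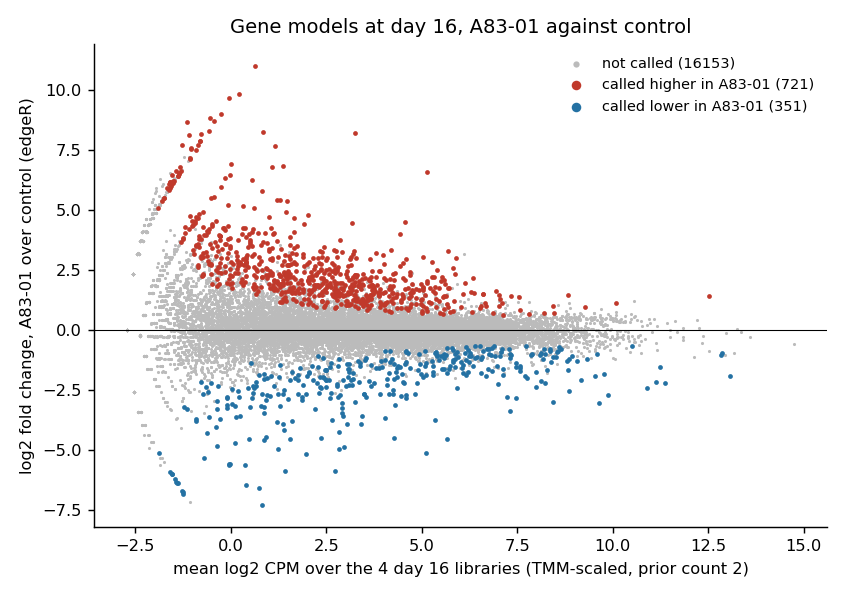
Each point is a gene model, with its mean log2 CPM over the 4 day 16 libraries on the horizontal axis and its log2 fold change of A83-01 over control on the vertical axis; red points are the 721 models called higher in A83-01, blue points the 351 called lower and grey points those not called. Raised models lie mostly at low and middle levels and lowered models extend to the highest levels, while the curved rows of points at the left edge are models with 0 counts in a group.

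Raised and lowered models stood at different levels in control, which is partly set by choosing them for their difference from control. The raised models had a median of 9.98 CPM in A83-01, against 2.06 CPM in control. The lowered models had a median of 7.30 CPM in A83-01 and 31.3 CPM in control, and all tested models 13.8 and 13.04 CPM. When the tested models were divided into 5 equal groups by their mean level at day 16, 7.37% of models between 1.56 and 7.43 CPM were raised and 2.35% lowered. In the highest group, from 57.5 CPM upwards, the order was turned round, with 1.42% raised and 3.31% lowered. Longer models were called more often in both directions. Among models with coding lengths of 2148 bases or more, 5.44% were raised and 2.56% lowered, against 2.45% and 1.35% among those of 603 bases or fewer.

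A small set of models had reads in A83-01 and none in control. In 19 models both control libraries held 0 counts while both A83-01 libraries held at least 10, and these were at least 3.06-fold to 69.7-fold higher in A83-01 against a floor of 3 counts per control library, with a median bound of 7.91-fold. Of the 19, 16 passed the test in A83-01, against 4.19% of all tested models raised. The choice by day 16 counts favours such calls. At stage I D24 16 of the 19 were also higher than at stage I D8, against 18.6% of all tested models. The reverse, 0 counts in both A83-01 libraries and at least 10 in both control libraries, was met by 1 model, which did not pass the test. With a looser limit of 3 counts, 21 models had at most that number in both control libraries and at least 30 in both A83-01 libraries, and 7 models showed the opposite. All of these looser cases passed the test, which the choice by day 16 counts again favours. Models near 0 in control alone thus outnumbered those near 0 in A83-01 alone. Limits in counts are easier to meet in this direction, since 3 counts correspond to 0.278 and 0.283 CPM in control. In A83-01 they correspond to 0.219 and 0.247 CPM. The part of depth in this excess was not tested.

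The models described singly had the largest fold changes among those meeting a rule that asks for at least 10 counts summed over the lower group, a mean of at least 10 CPM in the higher group and no overlap. It was met by 346 raised and 243 lowered models. The raised model ranked highest, evm.model.HIC_ASM_11.478 (coding length 1143 bases), had 3.43 and 867 CPM in the A83-01 replicates, against 1.39 and 1.51 CPM in the control replicates. The model ranked next, evm.model.HIC_ASM_2.519 (1626 bases), had 18.5 and 1439 CPM in A83-01, against 8.99 and 6.23 CPM in control. In both models the rise came almost wholly from A83-01 replicate 2. Their log2 fold changes were 8.22 ± 1.73 and 6.58 ± 1.28 (SE; edgeR adjusted p = 0.00613 and 0.0034), and without A83-01 replicate 2 they were 1.24 and 1.28 (adjusted p = 0.847 and 0.53). Both calls were also lost without control replicate 1, at log2 fold changes of 8.16 and 6.87 (adjusted p = 0.106 and 0.0596), and without control replicate 2, at 8.28 and 6.34 (0.112 and 0.0845). With only the 4 day 16 libraries in the fit they were lost at 8.18 and 6.54 (0.315 and 0.299). By limma-trend on log2(TPM + 1), evm.model.HIC_ASM_11.478 did not pass at 4.37 (adjusted p = 0.0953) and evm.model.HIC_ASM_2.519 passed at 4.09 (0.0484).

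The A83-01 replicates were over 8-fold apart in 9 of the 721 raised models (1.25%), against 31 of all 17225 tested models (0.18%). Replicate 2 was the higher in 6 of the 9 and replicate 1 in 3. In the other 8 of the 10 highest-ranked raised models the A83-01 replicates were closer to each other than in ranks 1 and 2. That both A83-01 libraries lay above both control libraries was required by the rule. The raised model of rank 5, of 414 bases, had 109.7 and 112.5 CPM in the A83-01 replicates and 5.65 and 4.06 CPM in the control replicates (log2 fold change 4.51 ± 0.85 SE, edgeR adjusted p = 0.00255). The raised model of rank 6, of 1338 bases, had 45.5 and 38.2 CPM in A83-01 and 1.30 and 2.46 CPM in control (4.47 ± 0.40, adjusted p = 4.46e-06). The raised model of rank 9, of 1713 bases, had 79.4 and 90.4 CPM in A83-01 and 5.84 and 4.72 CPM in control (4.0 ± 0.98, adjusted p = 0.0168). In these 3 models both A83-01 libraries lay far above both control libraries. The A83-01 replicates differed more in the raised models of ranks 3, 4 and 7. They had 13.4 and 26.6 CPM, 18.6 and 10.4 CPM, and 24.9 and 8.90 CPM in replicates 1 and 2.

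**Figure D2:**
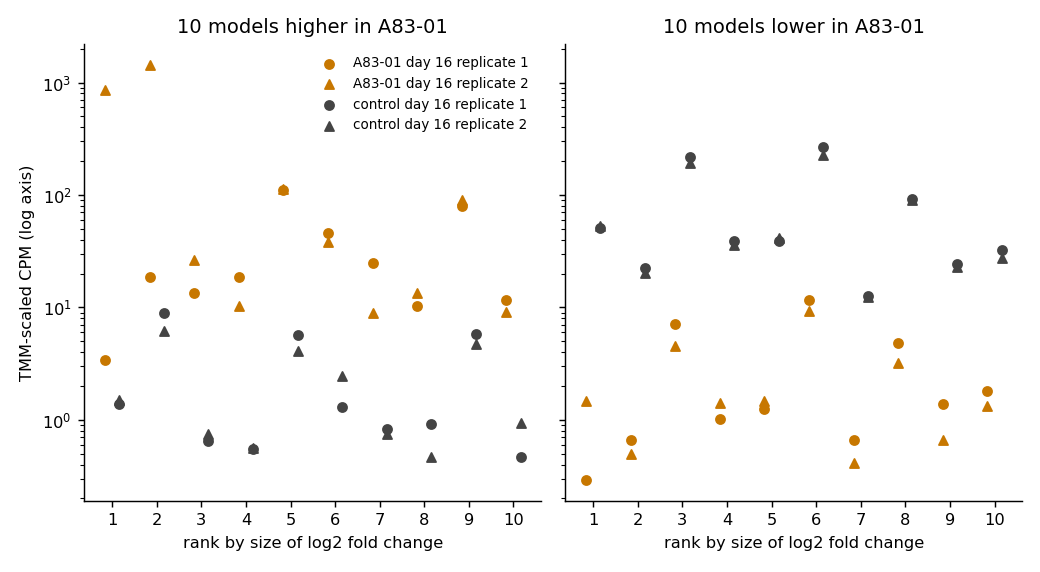
TMM-scaled CPM on a log axis of the 10 raised models (left) and the 10 lowered models (right) with the largest fold changes that met the naming rule, by rank, with A83-01 in orange, control in grey, circles for replicate 1 and triangles for replicate 2. A83-01 replicates lie far apart in the raised models ranked 1 and 2, at 3.43 and 867 CPM and at 18.5 and 1439 CPM, whereas in the lowered models the control replicates nearly coincide.

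The strongest decreases were large in both A83-01 libraries, although the rule itself required both to lie below both control libraries. The lowered model ranked highest, evm.model.HIC_ASM_2.1106 (1602 bases), had 0.292 and 1.48 CPM in the A83-01 replicates, against 51.0 and 52.7 CPM in the control replicates, and its log2 fold change was -5.88 ± 0.59 (SE; edgeR adjusted p = 0.000135). This model was low in all groups but the control at day 16. It averaged 2.47 CPM at stage I D8, 1.74 CPM at stage I D24 and 5.17 CPM at stage II D8, and was listed at 0 in PF and in GPiPSC of both LB and XR. The lowered model ranked next, evm.model.ORI_1550.3 (1161 bases), had 0.657 and 0.495 CPM in A83-01 and 22.4 and 20.1 CPM in control, a log2 fold change of -5.18 ± 0.72 (SE; adjusted p = 0.000189). It was also high at stage I D8, with 28.0 and 28.3 CPM, and low at stage I D24, with 3.48 and 3.87 CPM.

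Some lowered models stood far higher at stage I D8 than at day 16. The lowered model of rank 6, of 735 bases, had 11.7 and 9.23 CPM in A83-01, against 266.6 and 225.0 CPM in control. It averaged 5495 CPM at stage I D8, 36.9 CPM at stage I D24 and 3828 CPM at stage II D8, and 593.4 and 6739 CPM in LB and XR PF. The lowered model of rank 3, of 1449 bases, averaged 3197 CPM at stage I D8, 12.8 CPM at D24 and 1781 CPM at stage II D8, and at day 16 had 7.08 and 4.53 CPM in A83-01 and 218.5 and 194 CPM in control. For both, the day 16 control lay between the stage I days, A83-01 lay below stage I D24, and stage II D8 was high again. Of the 10 lowered models ranked highest by the rule 9 were also lower at stage I D24 than at D8, against 13.9% of all tested models. Of the 10 raised ones 7 were higher at D24, against 18.6%, and 1, that of rank 3, was lower at D24. It had 2.38 and 2.28 CPM at stage I D8 and 0 in both D24 libraries. Its log2 fold change of -7.93 (edgeR adjusted p = 0.0289) therefore rests on 0 counts. A floor of 3 counts corresponds to 0.316 and 0.215 CPM in the D24 libraries.

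Among the 20 models most abundant at day 16 by mean TPM, a level per length, 1 was lowered and 0 were raised. Over all tested models 2.04% were lowered and 4.19% raised, and 20 models are too few to differ clearly from these shares. The lowered model, with a coding length of 627 bases, stood at 1687 and 1876 TPM in A83-01, against 8094 and 8613 TPM in control (log2 fold change -2.17 ± 0.25 SE, edgeR adjusted p = 2.37e-05). The model numbered next to it on scaffold HIC_ASM_7, of 1077 bases, was lowered too, with a log2 fold change of -2.22. Neither model was called between stage I D8 and D24. The 10 most abundant models of each library took 8.78% and 10.1% of the counts in A83-01, against 12.5% and 12.6% in control.

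The other stages show where the raised and lowered models are otherwise expressed. The raised models had medians of 1.91 and 2.11 CPM in LB and XR PF and 1.47 CPM at stage I D8, all near the day 16 control. Later in reprogramming they stood higher, with medians of 14.5 CPM at stage I D24, 18.6 CPM at stage II D8, and 21.9 CPM in LB and XR GPiPSC. The lowered models followed another course. Their medians were 8.55 and 18.01 CPM in LB and XR PF, 43.9 CPM at stage I D8, 10.6 CPM at stage I D24, 10.7 CPM at stage II D8, and 1.91 and 2.10 CPM in LB and XR GPiPSC. Since the models were chosen for their values in A83-01 and control, where those 2 groups stand among the others is partly set by that choice. Medians over all tested models differed far less, from 8.35 CPM at stage II D8 to 13.8 CPM in A83-01.

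**Figure D3:**
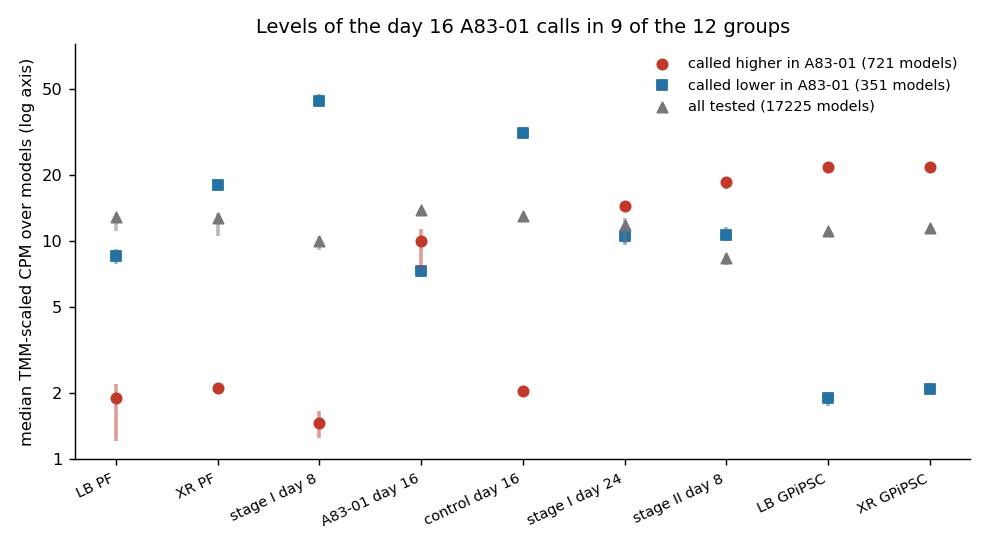
Median TMM-scaled CPM (log axis) of the raised models (red circles), the lowered models (blue squares) and all tested models (grey triangles) in PF, the reprogramming stages and GPiPSC; symbols are medians over models of the group mean and bars span the medians of the single libraries. Raised models have medians of 9.98 CPM in A83-01 and 2.06 CPM in control and stand highest in GPiPSC, while lowered models peak at stage I D8 with 43.9 CPM.

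The change between stage I D8 and D24 was measured in libraries other than the 4 of day 16. All 25 libraries entered the fit, however, so the calls of both comparisons rest on a common spread per model. Time and culture cannot be told apart in it, since the labels do not give the additives. Between these stages 3211 models were higher at D24 (18.6% of those tested) and 2388 lower (13.9%). Of the 3211 models higher at D24, 609 were raised in A83-01 and 10 lowered, that is 19.0% and 0.311%, against 4.19% and 2.04% of all models. Of the 2388 models lower at D24, 17 were raised and 253 lowered, that is 0.712% and 10.6%. Seen from the other side, 84.5% of all raised models were higher at D24, and 72.1% of all lowered models were lower at D24. The 11626 models not called between D8 and D24 contributed 95 raised and 88 lowered models.

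This pattern was present without any single day 16 library. Of the raised models, those higher at D24 were 194 of 231 without A83-01 replicate 1, 582 of 640 without A83-01 replicate 2, 225 of 241 without control replicate 1 and 171 of 184 without control replicate 2. Of the lowered models, those lower at D24 were 88 of 142, 111 of 148, 107 of 139 and 90 of 118. The stage I D24 replicates behind the day 24 calls were themselves far apart, at 109.4 on the same chi-square scale. Without stage I D8 replicate 1 the models higher at D24 numbered 2022 in place of 3211, which is 11.4% of those tested, and over the fits lacking each stage I library in turn they ranged from 2022 to 3252. With these calls between 552 and 597 of the 721 raised models were higher at D24. The models lower at D24 ranged from 1686 to 2500 and held between 219 and 241 of the 351 lowered models. When only the 4 day 16 libraries entered the day 16 fit and the 21 others the day 24 fit, 778 of 1096 raised models were higher at D24, against 16.2% of the 14987 models tested there. Of the 1137 lowered models 602 were lower at D24, against 13.5%.

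The size of the day 16 difference followed the size of the change between the stages. Across the models, which are not independent replicates, the log2 fold changes of A83-01 over control and of stage I D24 over D8 correlated with a Pearson r of 0.579 and a Spearman rho of 0.539 (n = 17225 models). The 2 comparisons share no library, but they share coding lengths and 1 fitted spread per model. Among the 285 models whose log2 fold change from D8 to D24 was over 6, the median log2 fold change in A83-01 was 2.65 and 33.0% were raised. Among the 5450 models between 0 and 1, the median was 0.11 and 0.752% were raised. At the other end, the 61 models under -6 had a median of -1.99, with 31.1% lowered. Of the 1074 models over 8-fold higher at D24, 397 (37.0%) were raised and 1 was lowered.

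**Figure D4:**
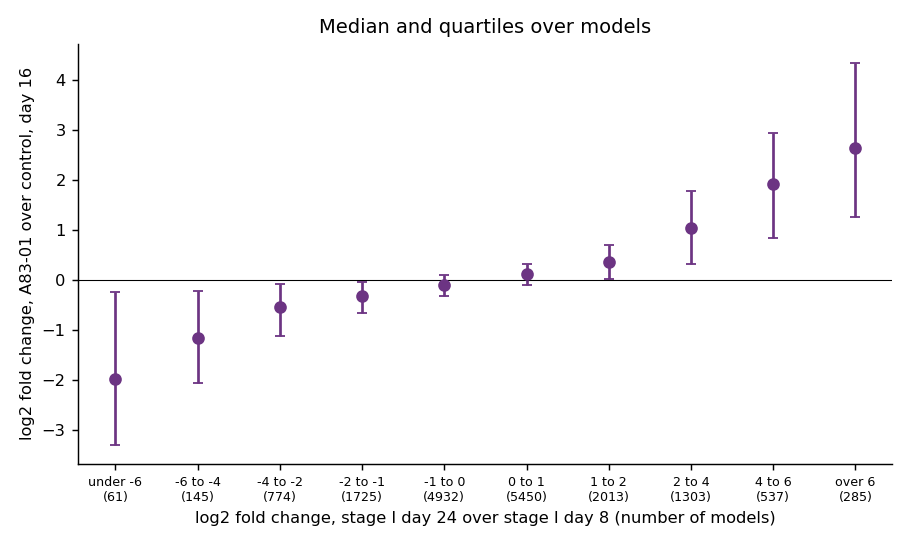
Median (points) and quartiles (bars) of the log2 fold change of A83-01 over control at day 16, for models grouped by their log2 fold change of stage I D24 over D8, with the number of models in each group. The median climbs through the groups, from -1.99 in the models that fell most by D24 to 2.65 in those that rose most.

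Each library was also placed between the mean of stage I D8 (0%) and that of stage I D24 (100%), by its mean log2 CPM over the models called between those stages. Over the models higher at D24, A83-01 replicates 1 and 2 stood at 70.5% and 54.6% of the way and the control replicates at 26.8% and 24.7%. Over the models lower at D24, the A83-01 replicates stood at 63.1% and 58.4% and the control replicates at 33.3% and 33.5%. The A83-01 libraries lay above the control libraries in both lists, by 36.8 and 27.3 percentage points between the group means. On this scale the gaps were larger than the spread between replicates, of which the largest was an SD of 11.3 points (A83-01, models higher at D24). Over the models higher at D24, LB PF stood at 28.7% and 19.0% and XR PF at 28.3% and 23.1%, close to the control. Over the models lower at D24, LB PF stood at 84.6% and 94.9% and XR PF at 65.25% and 59.15%, so that a low level of these models is also found in fibroblasts. Another scale shifts these positions. With log2(TPM + 1) the means of A83-01 and control were 87.1% and 50.01% over the models higher at D24, and 24.8% and -7.40% over those lower at D24, with gaps of 37.1 and 32.2 points. The spread of A83-01 was wider there, with replicates at 103.7% and 70.6% over the models higher at D24 (SD 23.4 points) and an SD of 8.67 points over those lower.

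**Figure D5:**
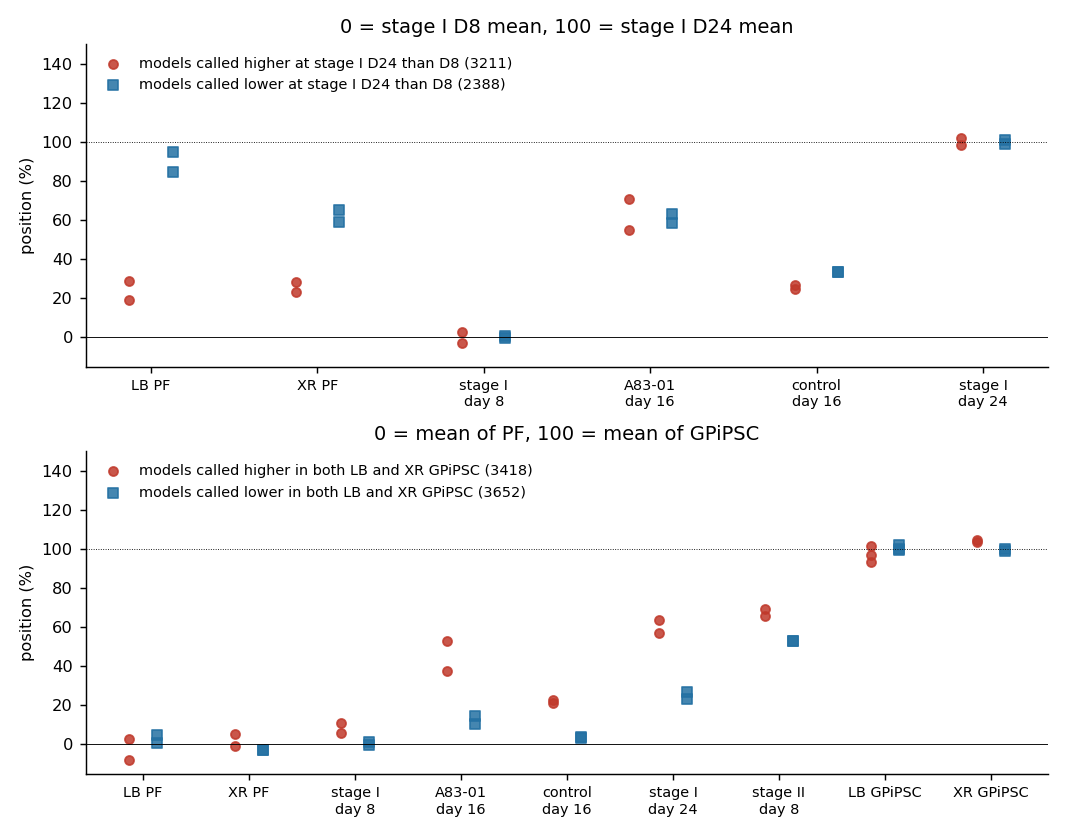
Position of each library, in percent, between stage I D8 and stage I D24 (upper panel) and between PF and GPiPSC (lower panel), with red circles for models higher at the end of the scale and blue squares for models lower there; each symbol is 1 library. The A83-01 libraries lie above the control libraries in all 4 lists, for example at 70.5% and 54.6% against 26.8% and 24.7% over the models higher at stage I D24, and the A83-01 replicates are farther apart than the control replicates.

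Replicate 1 of A83-01 stood farther from the control than replicate 2 in the raised models. Its log2 CPM was above that of replicate 2 in 597 of the 721 raised models (82.8%), by a median of 0.55 on the log2 scale. Over all tested models this share was 51.3%, and over the lowered models 44.4%. In either direction, the A83-01 replicates differed by a median of 0.61 on the log2 scale in the raised models, 0.32 in the lowered models and 0.33 in all tested models. Between the control replicates these medians were 0.26, 0.11 and 0.13.

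Models that separate established GPiPSC from PF gave the same direction with smaller shifts. In both LB and XR, 3418 models were higher in GPiPSC (19.8% of those tested) and 3652 were lower (21.2%). In LB alone 28.5% were higher and 28.9% lower, and in XR alone 27.0% and 28.9%. Of the models higher in GPiPSC 535 were raised in A83-01 (15.7%) and 31 lowered (0.907%). Of those lower in GPiPSC 29 were raised (0.794%) and 182 lowered (4.98%). Between PF (0%) and GPiPSC (100%), the A83-01 replicates stood at 52.8% and 37.6% over the models higher in GPiPSC, against 22.7% and 21.4% in the control replicates. Over the models lower in GPiPSC the A83-01 replicates stood at 14.5% and 10.5% and the control replicates at 3.67% and 3.27%. On the log2 CPM scale, the fibroblast-high models had thus moved much less than the GPiPSC-high models in both day 16 groups. With log2(TPM + 1) the A83-01 replicates stood at 47.8% and 23.8% over the models higher in GPiPSC. The control replicates stood at 17.03% and 16.04%. The gap between the means, 19.3 points, came mostly from A83-01 replicate 1. Over the models lower in GPiPSC the order of the A83-01 replicates was reversed, at 5.22% and 13.2%. The control replicates stood at -3.05% and -3.99%, below the PF mean, and the gap was 12.7 points.

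The change between stage I D8 and D24 and the change between PF and GPiPSC overlap, so their models were also counted together. Of 1797 models higher in both, 498 were raised (27.7%), which is 69.1% of all raised models. Of 1515 models higher in GPiPSC but not called between D8 and D24, 33 were raised (2.18%), a share below that of all models. Of 1221 models higher at D24 and not called alike in both GPiPSC comparisons, 99 were raised (8.11%), and of 193 higher at D24 but lower in GPiPSC, 12 were (6.22%). Among lowered models, 147 belonged to the 1328 models lower both at D24 and in GPiPSC (11.1%), and 16 to the 106 models lower at D24 but higher in GPiPSC (15.1%).

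The step from stage I D24 to stage II D8 divides the raised models further. Stage II D8 had 2183 models higher (12.7% of those tested) and 3279 lower (19.0%) than stage I D24, a comparison that shares the D24 libraries with that of D8 and D24. Of the 541 models that were higher at D24 than at D8 and higher again at stage II D8, 164 were raised in A83-01 (30.3%) and none lowered. Of the 724 models that were higher at D24 and lower at stage II D8, 68 were raised (9.39%) and 6 lowered. The 1946 models higher at D24 and not called between D24 and stage II D8 held 377 raised models (19.4%) and 4 lowered. These 377 make up 52.3% of all raised models. Over all tested models 4.19% were raised and 2.04% lowered. Of the 395 models that were lower at D24 and higher again at stage II D8, 74 were lowered in A83-01 (18.7%) and 5 raised. The 457 models lower in both steps held 48 lowered models (10.5%). The 1536 models lower at D24 and not called in the second step held 131 (8.53%).

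Most lowered models stood higher at stage I D8 than the mean of PF. Set against PF, averaged over LB and XR, 4471 models were higher at stage I D8 (26.0% of those tested) and 4418 lower (25.6%). The models higher at D8 held 244 of the 351 lowered models (69.5%). Of the 1481 models that were higher at D8 than in PF and then lower at D24, 191 were lowered in A83-01 (12.9%) and 9 raised. Among the 2630 models that were higher at D8 and not called between D8 and D24, 47 were lowered (1.79%). Both steps share the stage I D8 libraries, so a low or high value there moves a model in both. Since the stage I titles name no line, a rise from PF within a line is not shown. LB and XR PF could differ widely, as in the lowered model of rank 6. It averaged 593.4 CPM in LB PF, 6739 CPM in XR PF and 5495 CPM at stage I D8. The raised models came from all classes of stage I D8 against PF. Of the models higher at D24, 110 of 360 that were higher at D8 than in PF were raised (30.6%). So were 239 of 1324 that were lower at D8 than in PF (18.1%), and 260 of 1527 not called there (17.0%).

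CHIR99021, an inhibitor of the kinase GSK3 that activates WNT signalling, was added in another comparison of the series. That comparison shares no library with that of day 16, but both came from the fit of all 25 libraries. In BACL-CHIR99021 2010 models were higher (11.7% of those tested) and 763 lower (4.43%) than in BACL control. Of the 2010 models higher with CHIR99021, 120 were raised in A83-01 (5.97%) and 134 lowered (6.67%). Of the 763 models lower with CHIR99021, 76 were raised (9.96%) and 10 lowered (1.31%). Models lowered in A83-01 therefore lay more often among those higher with CHIR99021 than the 2.04% of all tested models that were lowered, and 38.2% of all lowered models were among them. Most of these were also models that are lower at stage I D24 than at D8. Of the 645 models lower at D24 and higher with CHIR99021, 104 were lowered in A83-01 (16.1%), against 30 of the 1365 models higher with CHIR99021 and not lower at D24 (2.20%). The lowered models had a median of 3.42 CPM in BACL-CHIR99021 and 0.994 CPM in BACL control, and the raised models 19.9 and 20.01 CPM. The lowered model evm.model.ORI_1550.3 averaged 21.3 ± 0.429 CPM in BACL-CHIR99021 and 1.46 ± 0.0423 CPM in BACL control (SD, n = 2 each). Those of ranks 3 and 6 also stood higher with CHIR99021, at 417.7 and 1374 CPM against 0.0311 and 1.15 CPM. By contrast, evm.model.HIC_ASM_2.1106 was listed at 0 in both groups. The lowered models of ranks 4, 5 and 7 to 10 averaged at most 0.853 CPM with CHIR99021.

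Some raised and lowered models were not called in the same direction between stage I D8 and D24. A missed call does not show that they did not change, and evm.model.HIC_ASM_2.519 among them had 26.7 and 37.7 CPM at D8 and 149.5 and 241.9 CPM at D24. The 112 raised models that were not called higher at D24, of which 17 were called lower there, had a median of 6.23 CPM in A83-01, against 1.17 CPM in control. Their medians in all other groups lay between 0.943 CPM in XR PF and 3.23 CPM at stage II D8. In 45 of the 112 (40.2%) A83-01 had the highest mean of the 12 groups, against 35 of the 609 raised models that were higher at D24 (5.75%) and 4.53% of all tested models. The 98 lowered models that were not called lower at D24, of which 10 were called higher there, had a median of 3.07 CPM in A83-01 and 14.9 CPM in control. In 38 of these 98 (38.8%) the day 16 control had the highest mean of the 12 groups, against 8.80% of all tested models. Because these models were chosen for their day 16 difference, the shares are a description and were not tested.

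The calls were spread over the genome. Models lie on 21 scaffolds named HIC_ASM and on others, and on the HIC_ASM scaffolds the share of tested models that were raised ran from 3.20% to 5.98%, and the share lowered from 0.538% to 3.61%. The median log2 fold change of a scaffold lay between -0.08 and 0.12. Scaffold HIC_ASM_6 had the highest share of raised models, 52 of 869, and scaffold HIC_ASM_7 that of lowered models, 37 of 1024. Neighbouring models were called alike more often than others. Of 560 raised models with a tested neighbour, by consecutive number on the scaffold, 100 (17.9%) had a raised neighbour, against 4.999% of the other models. Of 281 lowered models 66 (23.5%) had a lowered neighbour, against 2.24%. Adjacent models were called in opposite directions in 8 of 10225 pairs. The longest runs held 3 models. One lay on HIC_ASM_7 and held lowered models of 501 to 2460 bases, with mean levels of 0.0777 to 0.110 CPM in A83-01 and 2.48 to 13.5 CPM in control. Reads of near-identical neighbours, or of a gene divided into several models, cannot be assigned with certainty in these tables, and their part in this clustering was not tested.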

How the data were processed

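Reads were quantified with kallisto, per the submitters' processing notes. Neither its version nor the index and build behind it is given in the sources used here. Per the file headers, each library has 1 deposited table with length, effective length, estimated count and TPM for 22924 models, and the authors did not pool replicates. Coding length is written for length, as 91.6% of the values are multiples of 3. Estimated counts were rounded. The TPM values deposited by the authors, scaled to effective length and library total, served for abundance ranks and alternatives.

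Titles gave the groups and replicate numbers. The fit took all 25 libraries in 12 groups, using filterByExpr, TMM scaling and edgeR 4.0.16 in R 4.3.3 (quasi-likelihood, robust, Benjamini-Hochberg over 17225 models, threshold 0.05). SEs derive from the F statistic. Log2 CPM used a prior count of 2. Limma 3.58.1 and DESeq2 1.42.0 gave alternatives. The fit was run on simulated counts with the same spread in every group, which cannot test the pooling of groups of unequal spread. The comparison, the lists and the tests were chosen with earlier results of these data known. Marker lists could not be matched to any model.

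The naming rule takes called models with at least 10 counts summed over the lower group, a mean of at least 10 CPM in the higher group and no overlap, of which the 2 per direction with the largest fold changes are given by identifier and the 10 per direction by rank. Groups pool their spread in the test although it differed between them. A floor of 3 counts corresponds to 0.219 and 0.247 CPM in A83-01 and 0.278 and 0.283 CPM in control, and covers counting error only.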

Additional observations from a re-analysis of the deposited data

How the results depend on the processing

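RLE size factors, DESeq2 (916 raised, 481 lowered), no filter, effective-length offsets and, with the filter, limma-trend at a pseudocount of 1 or 0.1 TPM kept the counts of raised and lowered models within 1.5 times of 721 and 351. The models called were not all the same. DESeq2 kept 688 of the 721 raised and 334 of the 351 lowered models. With the filter, limma-trend kept 435 and 269 at a pseudocount of 1 TPM, and 459 and 214 at 0.1 TPM. Without a filter, limma-trend on log2(TPM + 1) gave 575 lowered models. With only the 4 day 16 libraries in the fit 1096 were raised and 1137 lowered, with 14987 models tested. Against a 2-fold threshold 208 were raised and 92 lowered, since that test asks for more than a difference from 0. Leaving out each day 16 library in turn gave 184 to 640 raised and 118 to 148 lowered models. With a replicate block in the fit of all libraries 644 were raised and 304 lowered, and with a replicate block in the fit of the 4 day 16 libraries 1481 and 1464. The block in the fit of all libraries ended the calls of evm.model.HIC_ASM_11.478 (log2 fold change 6.04, edgeR adjusted p = 0.0725) and evm.model.HIC_ASM_2.519 (4.45, 0.0885). The labels do not say that equal numbers mark paired samples, and the differences between replicates 2 and 1 correlated at -0.00453 between A83-01 and control across models. The cause of the other shifts was not tested. None of the models called in the test of all libraries was called in the opposite direction under any of these settings, and without A83-01 replicate 2 the fold change of 3 of them changed sign. Redoing the day 24 calls, from the 21 libraries outside day 16 or without each stage I library, was chosen after the data were examined. With calls from those 21 libraries 601 of the raised models were higher at D24 and 241 of the lowered models lower. Depth limits low models, where a floor of 3 counts lies between 0.219 and 0.283 CPM.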
